A study of Saccharomyces cerevisiae with 30 samples.

Results

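The MATa a-specific genes are those that a budding yeast cell of mating type a transcribes and a cell of mating type alpha keeps silent. The 7 members described here are MFA1 (YDR461W), MFA2 (YNL145W), STE2 (YFL026W), STE6 (YKL209C), AGA2 (YGL032C), ASG7 (YJL170C) and BAR1 (YIL015W), out of 7127 features in the table of transcript levels. They were chosen by locus name and not by a measured value, but with earlier results of these data known. The samples are 30 time points of 1 Saccharomyces cerevisiae culture, taken every 10 min from 0 to 290 min, with 1 library at each. The strain derives from BF264-15D and is MATa bar1, so all samples share the bar1 mutation, whose allele the sources used here do not describe. The culture grew at 38.5°C, a mild chronic heat stress, in YEP with 2% dextrose, was arrested in G1 with alpha-factor for 2.5 h and was then released. The labels and the methods give different alpha-factor doses, by weight per volume, and no dose is used below. There are no replicates, so no p-value is given, and time points of one culture are not independent of each other.

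Levels are in TPM, a unit of RNA abundance in which values are corrected for transcript length but are shares of a fixed total and keep no record of read depth. The study names 100, 140 and 150 min as STRIPEs, time points where levels shift over much of the transcriptome. Its detector function also called 0, 10 and 20 min, which the study treated as possibly biological, and its text in places gives 110 min in place of 100 min. The comparisons of release below rest on the samples at 0, 10 and 20 min. Scaled values are TPM after division by one factor per library, the median ratio of its features to their geometric mean over the series, which was 0.78, 0.75 and 0.92 at 0, 10 and 20 min. A feature was counted as higher or lower between windows where its mean TPM differed at least 2-fold. The share of all features past that fold is given with the first count of each comparison.

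The products of these genes let an a cell court an alpha partner. MFA1 and MFA2 encode precursors of the a-factor pheromone, Ste6 exports the mature a-factor, Ste2 is the receptor for alpha-factor, and Aga2 is the adhesive subunit of a-agglutinin at the cell surface. Asg7 acts after mating, when it dampens receptor signalling, and Bar1 is a secreted protease that degrades alpha-factor. In an a cell the MADS-box protein Mcm1 activates them, and in an alpha cell the repressor alpha2 binds beside Mcm1 at the same operator and shuts them off. Alpha-factor bound to Ste2 frees the G-protein subunits that signal to the transcription factor Ste12, which raises many mating genes.

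The operators are shown because they are the sequence feature that the members share. Each stretch of 30 bases is given on the coding strand of its gene, from the R64 assembly of RefSeq. Capitals mark exact matches to CATGTAA or its reverse complement, a half-site of alpha2, and the CC and GG of the Mcm1 core CCNNNNNNGG. Alpha2 binds as a dimer to a half-site on each side of the core, and in most members the second half-site is an imperfect copy left in lower case.
MFA1: gtgtaattaCCcaaaaaGGaaatTTACATG
MFA2: atgtatttaCCtattcgGGaaatTTACATG
STE2: CATGTAAatttCCtaattgGGtaagtacat
STE6: CATGTAAttaCCtaatagGGaaatttacac
AGA2: CATGTAAtttCCgaatacGGtaattacacg
ASG7: acgtaattaCCgcatcgGGaaatTTACATG
BAR1: CATGTAAttaCCgtaaaaGGaaaTTACATG

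These stretches lie at chrIV:1384943-1384972 (MFA1), chrXIV:352164-352193 (MFA2), chrVI:82351-82380 (STE2), chrXI:46478-46507 on the minus strand (STE6), chrVII:437102-437131 on the minus strand (AGA2), chrX:101905-101934 on the minus strand (ASG7) and chrIX:322078-322107 (BAR1). They begin between 155 and 298 bases before the start codon. The pattern searched was CATGTAA, then 3 or 4 bases of any kind, then CCNNNNNNGG, on both strands. In the 300 bases before the start codon it was found at 7 of 6020 protein-coding genes (0.116%), and these were the 7 members. AFB1, a further a-specific gene described below, was not among them. The pattern was written after the members' own sequences had been seen, so this count describes the pattern and does not test it. Its parts were common, since CCNNNNNNGG alone was found in 28.7% of the 6020 promoters and CATGTAA alone in 3.90%. In BAR1 both ends read CATGTAA inward, so that it holds 2 matches, whereas the other 6 members hold 1. The pheromone response element TGAAACA, the site known for Ste12, was found on either strand before 5 of the 7 members and in 7.18% of all promoters. MFA1 and ASG7 held only its 6-base form TGAAAC, which stood in 19.4% of all promoters.

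Only part of this set could be followed over time. STE2, STE6, AGA2 and ASG7 were above 0 TPM at all 30 time points, MFA2 at 25 and MFA1 at 2, and BAR1 was listed at 0 throughout. The levels followed one order at nearly every time point. Where both genes of a pair were above 0, MFA2 exceeded AGA2 at 25 of 25 time points, AGA2 exceeded STE2 at 30 of 30, STE2 exceeded ASG7 at 29 of 30 and ASG7 exceeded STE6 at 30 of 30. The exception was 0 min, where ASG7 had 781 TPM and STE2 had 256 TPM. The mean over all time points was 1735 TPM for MFA2, 566 TPM for AGA2, 237 TPM for STE2, 137 TPM for ASG7 and 51.9 TPM for STE6. Among features above 0 at some time point, these means stood at the 98.0th percentile for MFA2, the 95.7th for AGA2, the 92.1st for STE2, the 87.4th for ASG7 and the 71.0th for STE6. The mean and percentile of MFA2 count its 5 zeros. Its median over the 25 time points above 0 was 2101 TPM.

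**Figure D1:**
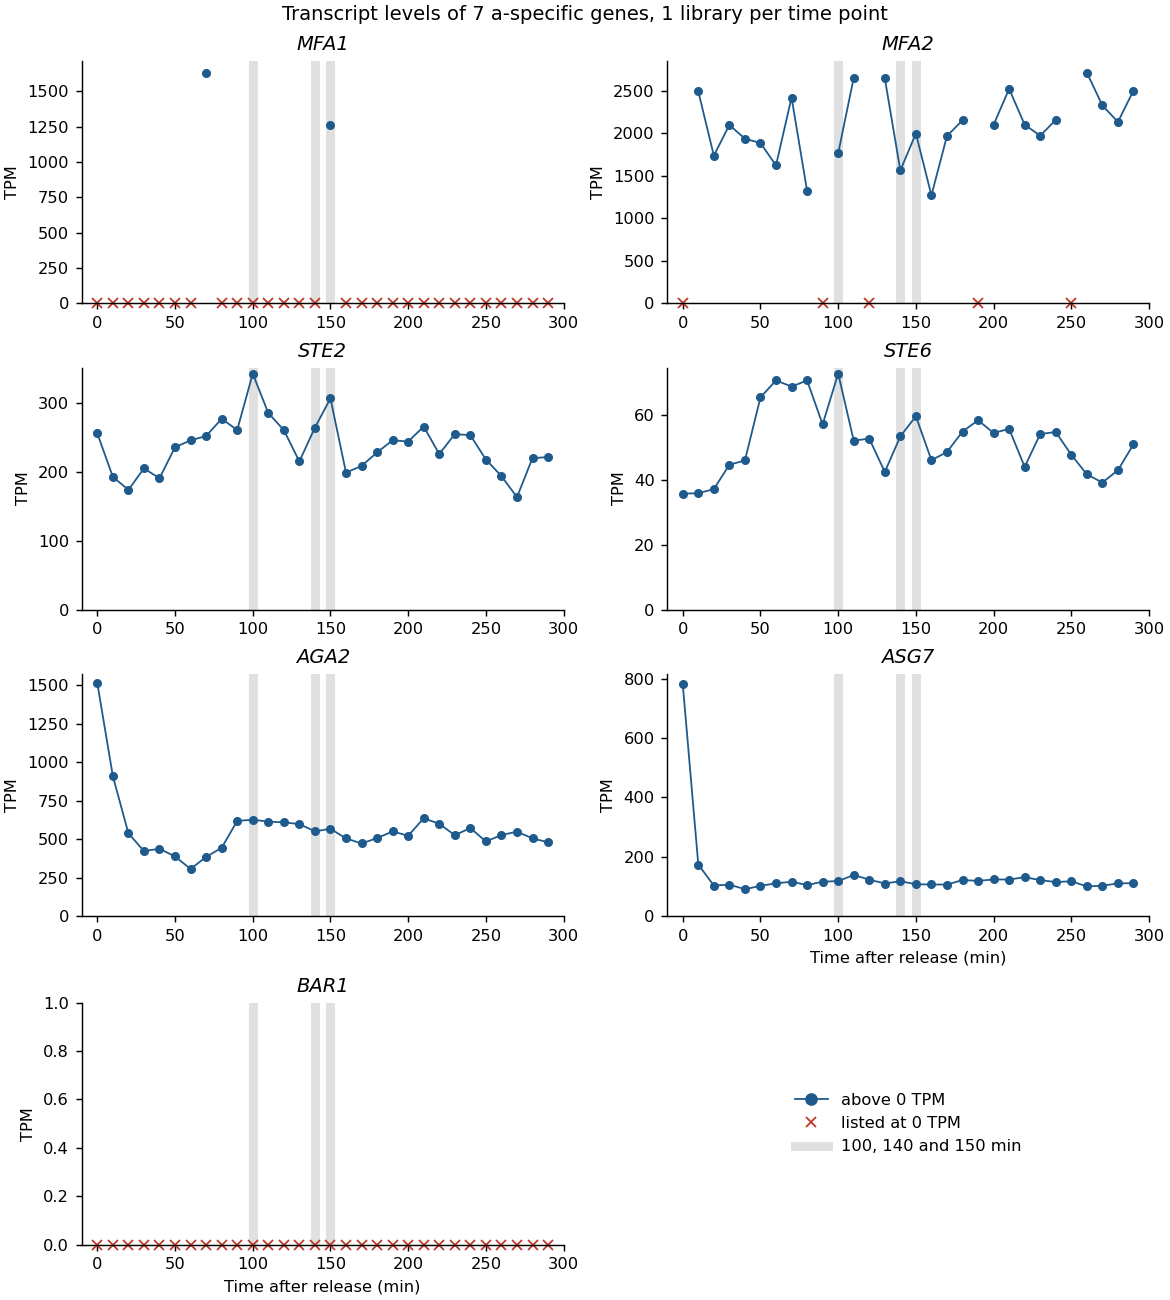
Level of each a-specific gene in TPM (vertical axis) against time after release in min (horizontal axis), with 1 library per point, red crosses where the table lists 0 TPM and grey bands at 100, 140 and 150 min. AGA2 and ASG7 start at 1515 and 781 TPM at 0 min, STE2 and STE6 have no such start, and the MFA genes and BAR1 carry zeros.

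The mating type on the label was checked against the genes of the other mating type. Transcripts of 4 alpha-specific genes stayed at or below 22.2 TPM. MF(ALPHA)1, MF(ALPHA)2 and STE3 encode the alpha-factor precursors and the a-factor receptor, and SAG1 encodes alpha-agglutinin. Their mean levels were 2.43 TPM for MF(ALPHA)1, 17.7 TPM for MF(ALPHA)2, 5.39 TPM for STE3 and 16.9 TPM for SAG1. The 4 a-specific genes that were always above 0 summed to between 734 and 2588 TPM over the time points, against 29.5 to 49.6 TPM for the 4 alpha-specific genes, and the ratio of the sums was never below 14.8. Single genes stood closer than the sums. At 0 min STE6 had 35.7 TPM, its lowest value, and MF(ALPHA)2 had 21.6 TPM. MATALPHA1, the activator of alpha-specific genes, was listed at 0 at 27 of 30 time points and reached 0.08 TPM at most. The mating type loci share near-identical copies with the silent cassettes. The level of MATALPHA2 averaged 15.2 TPM, was the same as that of its silent copy HMLALPHA2, and cannot be assigned to 1 locus. The same limit holds for HMRA1, of the silent a cassette, which averaged 54.4 TPM and was above 0 at all 30 time points. HMRA2 was listed at 0 at 26 of 30. A further a-specific gene, AFB1, was above 0 throughout, with 54.8 TPM on average at 30 to 50 min, against 40.4 TPM at 0 to 20 min (log2 ratio 0.44).

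The transcripts of ASG7 and AGA2 were high in the arrested culture and fell after release. In bulk RNA, fewer cells that express a gene and less RNA per cell cannot be told apart. ASG7 had 106, 90.5 and 102 TPM at 30, 40 and 50 min, against 781, 174 and 103 TPM at 0, 10 and 20 min. The means of the 2 windows were 99.4 TPM at 30 to 50 min and 353 TPM at 0 to 20 min, a 3.55-fold fall (log2 ratio -1.83, scaled -2.31). The windows overlapped only through the 103 TPM at 20 min, by which time ASG7 had reached its later level.

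AGA2 also fell, in smaller steps. It had 423, 438 and 388 TPM at 30, 40 and 50 min, against 1515, 910 and 538 TPM at 0, 10 and 20 min, with no overlap. The window means were 416 and 988 TPM, a 2.37-fold fall (log2 ratio -1.25, scaled -1.71). AGA2 then had 306 TPM at 60 min, its lowest value, which was 0.501 times the median of 90, 110, 120 and 130 min, and it was back at 619 TPM by 90 min.

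The receptor and exporter genes were not called in either direction. The receptor gene STE2 had 205, 191 and 236 TPM at 30, 40 and 50 min, against 256, 193 and 174 TPM at 0, 10 and 20 min, and the windows overlapped. The log2 ratio of their means, 211 and 208 TPM, was 0.02, and it was -0.43 after scaling, so its direction depends on the scaling. STE6, the a-factor exporter, had 44.6, 45.9 and 65.3 TPM at 30, 40 and 50 min, against 35.7, 35.8 and 37.1 TPM at 0, 10 and 20 min, with no overlap. Its log2 ratio was 0.52 in TPM and 0.08 after scaling. The median log2 ratio over all features was itself 0.40 in TPM and -0.02 after scaling, so the TPM of most features were higher at 30 to 50 min.

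Of the 4 members with a ratio, 2 were at least 2-fold lower at 30 to 50 min, and 0 were at least 2-fold higher. Over all 6208 features with a ratio, 0.58% were at least 2-fold lower and 4.96% at least 2-fold higher. After scaling the 2 members were still at least 2-fold lower, as were 1.61% of all features. Counted from the lowest ratio, ASG7 was 8th and AGA2 22nd of 6208. Both calls rest on the arrested sample. Without 0 min, 0 of 5 members passed 2-fold, with log2 ratios of -0.80 for AGA2 and -0.48 for ASG7.

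**Figure D2:**
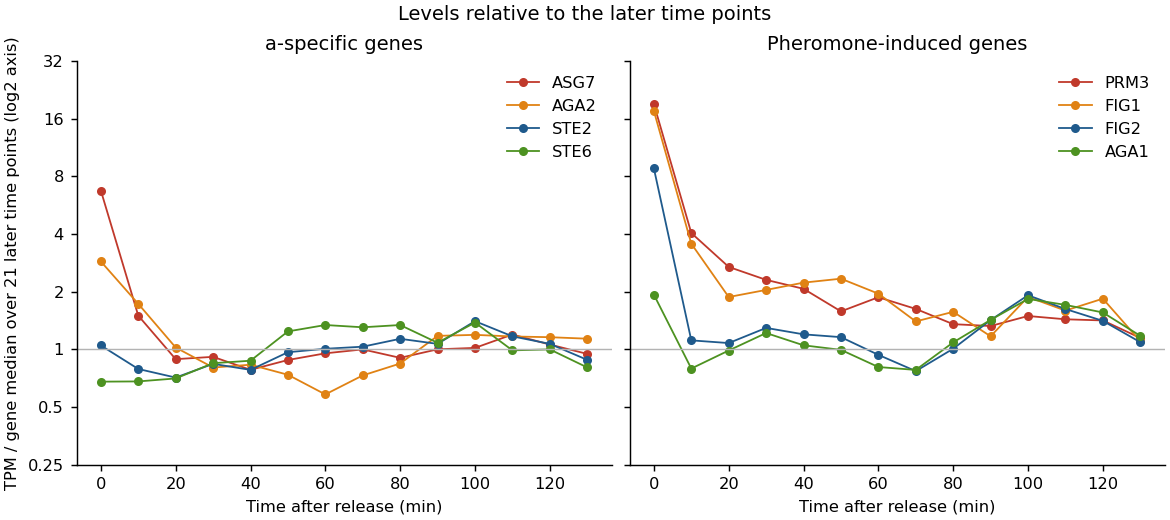
Level relative to the gene's own median over the 21 later time points (60 to 290 min without 100, 140 and 150 min), on a log2 axis, against time after release in min, for 4 a-specific genes (left) and 4 pheromone-induced genes (right), with 1 library per point. ASG7 and AGA2 start at 6.75 and 2.88 times their later level, AGA1 at 1.93 times, and STE6 starts below its later level.

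The first 10 min after release separated the 2 falling genes. At 10 min over 0 min, ASG7 was 4.50-fold lower (log2 ratio -2.17), the 27th lowest of 6252 features, whereas AGA2 had a log2 ratio of -0.74 and was the 469th lowest. STE2 had a log2 ratio of -0.41 and STE6 of 0.00. Thus 1 of 4 members was at least 2-fold lower between these samples, beside 3.79% of all features. Set against the median of the 21 later time points, the arrested sample was 6.75-fold higher for ASG7, 2.88-fold higher for AGA2, 1.05-fold higher for STE2 and 0.679-fold for STE6. These ratios ranked 12th for ASG7, 50th for AGA2, 1215th for STE2 and 4108th for STE6, from the highest of 6177 features. After scaling they were 8.77 for ASG7, 3.67 for AGA2, 1.41 for STE2 and 0.874 for STE6.

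Other genes of the mating response were described in the same windows. Of 16 pheromone-induced genes, 3 were at least 2-fold lower at 30 to 50 min than at 0 to 20 min, beside 0.58% of all features, with a median log2 ratio of -0.05. After scaling 6 were lower, beside 1.61% of all features, with a median of -0.49. The 3 were PRM3, a factor for nuclear fusion (68.5 against 297 TPM, log2 ratio -2.12), FIG1, a membrane protein of the mating calcium response (21.5 against 74.7 TPM, log2 ratio -1.80), and FIG2, a cell wall adhesin (77.3 against 233 TPM, log2 ratio -1.59). Between 10 and 0 min, 7 of the 16 were at least 2-fold lower, beside 3.79% of all features, with a median log2 ratio of -0.81.

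AGA1 encodes the wall-anchored subunit to which Aga2 is joined by disulfide bonds, and unlike AGA2 it is not mating-type specific. It had 370 TPM on average at 30 to 50 min, against 421 TPM at 0 to 20 min (log2 ratio -0.19, scaled -0.63). AGA1 had already dropped to 270 TPM at 10 min, against 657 TPM at 0 min. The ratio of AGA2 to AGA1, which no scaling of a library can change, stood at 2.30 in the arrested sample, then at 3.36 after 10 min and 1.60 after 20 min. Over the 21 later time points it ranged between 1.06 at 110 min and 2.36 at 270 min, with a median of 1.53. The 2 subunit transcripts thus did not keep a fixed ratio, and the highest value came 10 min after release.

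Genes of signalling and of a-factor processing did not pass 2-fold in either direction. In the receptor pathway, 0 of 15 genes passed at 30 to 50 min over 0 to 20 min, with a median log2 ratio of 0.38 (scaled -0.04). In TPM the ratios furthest from 0 were those of STE18, the G-protein gamma subunit (0.87, scaled 0.46), STE5, the kinase scaffold (0.79, scaled 0.39), and FAR1, the inhibitor of the G1 cyclin kinase (0.59, scaled 0.15). After scaling the furthest was DIG2, an inhibitor of Ste12, with 17.5 TPM at 30 to 50 min, against 24.7 TPM at 0 to 20 min (log2 ratio -0.50, scaled -0.94). STE12 had a log2 ratio of 0.09 (scaled -0.34) and MCM1 of 0.19 (scaled -0.25), so both turned with the scaling. Of 6 genes for a-factor processing, 0 passed 2-fold, with a median of 0.69 (scaled 0.27). In TPM the furthest were RCE1 and STE24, proteases of the prenylated precursor (0.79 and 0.73), and AXL1, the protease of the final amino-terminal cut (0.70). Of 6 early cell cycle box genes, which Mcm1 binds in every mating type, 0 passed 2-fold, with log2 ratios of 0.65 for CDC6, 0.34 for MCM7 (scaled -0.12) and -0.33 for MCM3. All 4 G2/M markers passed 2-fold upward over the same windows, beside 4.96% of all features, with log2 ratios of 2.98 for CLB1, 2.36 for SWI5 and 1.83 for CLB2.

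From 60 min on, 3 of the 4 members stayed within a 2-fold range. STE2 averaged 236 ± 30.0 TPM, STE6 52.7 ± 9.06 TPM, AGA2 525 ± 81.4 TPM and ASG7 115 ± 9.58 TPM (SD over n = 21 time points without the STRIPEs). STE2 ranged between 164 TPM at 270 min and 286 TPM at 110 min, a 1.75-fold range. STE6 had a 1.80-fold range and ASG7 a 1.39-fold range. The highest values of STE2 and ASG7 in this span were at 110 min, which the study's text in places names as a STRIPE. AGA2 ranged between 306 TPM at 60 min and 636 TPM at 210 min, a 2.08-fold range, and was the 1 member of 4 past 2-fold, beside 18% of all 6186 features. The median range over all features was 0.62 in log2 units, against 0.81 for STE2, 0.85 for STE6, 1.05 for AGA2 and 0.47 for ASG7. With the STRIPEs kept in, 2 members passed, as STE2 had 343 TPM at 100 min.

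At the STRIPEs of 140 and 150 min the receptor and transporter genes stood above their flanks in TPM. STE2 had 265 and 307 TPM at 140 and 150 min, against 216 and 199 TPM at 130 and 160 min, with a log2 ratio of 0.46. STE6 had 53.4 and 59.5 TPM at 140 and 150 min, against 42.4 and 46.0 TPM at 130 and 160 min, with a log2 ratio of 0.35. Neither gene overlapped its flanks, but the median over all features was 0.26, and after scaling the ratios were 0.21 for STE2 and 0.10 for STE6. AGA2 (0.02, scaled -0.23), ASG7 (0.06, scaled -0.19) and MFA2 (-0.14, scaled -0.39) lay below that median. In all, 0 of 5 members passed 2-fold at the STRIPEs, beside 2.01% of all features.

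Late and middle windows of the series were compared last. Between 250 to 290 min and 160 to 200 min, the log2 ratio was -0.15 for STE2, -0.24 for STE6, -0.01 for AGA2 and -0.09 for ASG7. None of the 4 passed 2-fold, beside 0.0965% of all features.

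The timing of the members was read as local maxima in scaled TPM, a time point above the 2 before and the 2 after it. STE2 peaked at 100, 150 and 210 min, with troughs at 40, 130, 170, 220 and 270 min. Its scaled level was 182 at the 40 min trough, 300 at the 100 min peak, 209 at the 170 min trough, 262 at the 210 min peak and 181 at the 270 min trough. The peaks at 100 and 150 min are STRIPEs. The value next to the first of them, at 110 min, was also high, at 286 TPM, but the study's text in places names 110 min as a STRIPE. STE6 peaked at 70, 150, 190 and 240 min. After release it was at or above 65.3 TPM from 50 to 80 min and thus reached its high level before the 100 min peak of STE2.

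AGA2 peaked at 130, 160, 210 and 270 min and had its lowest scaled level at 60 min. ASG7 peaked at 110, 220 and 250 min. Among the phase markers, the mitotic cyclin gene CLB2 peaked at 60, 150, 180 and 240 min, and EGT2, a wall protein gene of the M/G1 transition, peaked at 30, 80, 190 and 270 min. The G1 cyclin gene CLN2 peaked at 130, 180, 210, 240 and 270 min, and the histone gene HTB1 at 30, 130 and 230 min. The rule cannot call 0 or 10 min, and the highest level of CLN2 was at 10 min (72.8 TPM). The highest scaled levels of STE2 (329), AGA2 (1946) and ASG7 (1004) were likewise at 0 min. The low point of AGA2 and the first CLB2 peak were both at 60 min. The first STE2 peak that the rule could call lay between the EGT2 peak at 80 min and the CLN2 peak at 130 min.

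A periodicity score, the best Kendall correlation with cosine curves of 60 to 120 min over 30 to 290 min, ranked STE2 42nd, STE6 74th, ASG7 673rd and AGA2 723rd of 6369 features. The best curve had a period of 110 min and a phase of 100 min for STE2, and a period of 120 min and a phase of 80 min for STE6. For comparison AGA1 ranked 50th, MCM1 4358th and AFB1 5719th. The pheromone-induced and receptor pathway genes ranked between 1st and 6075th, so a high rank was not particular to the members. On unscaled TPM the order was ASG7 30th, AGA2 164th, STE2 240th and STE6 385th, and over all 30 time points, scaled, it was STE6 38th, STE2 48th, AGA2 228th and ASG7 406th. The order of the members thus depends on the scaling and on the first 3 time points. The span of 30 to 290 min includes the STRIPEs, and the best phase of STE2, 100 min, falls on a STRIPE. Whether the ranks depend on the STRIPEs was not tested. The series spans few such periods, and the ranks are a description with no test.

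**Figure D3:**
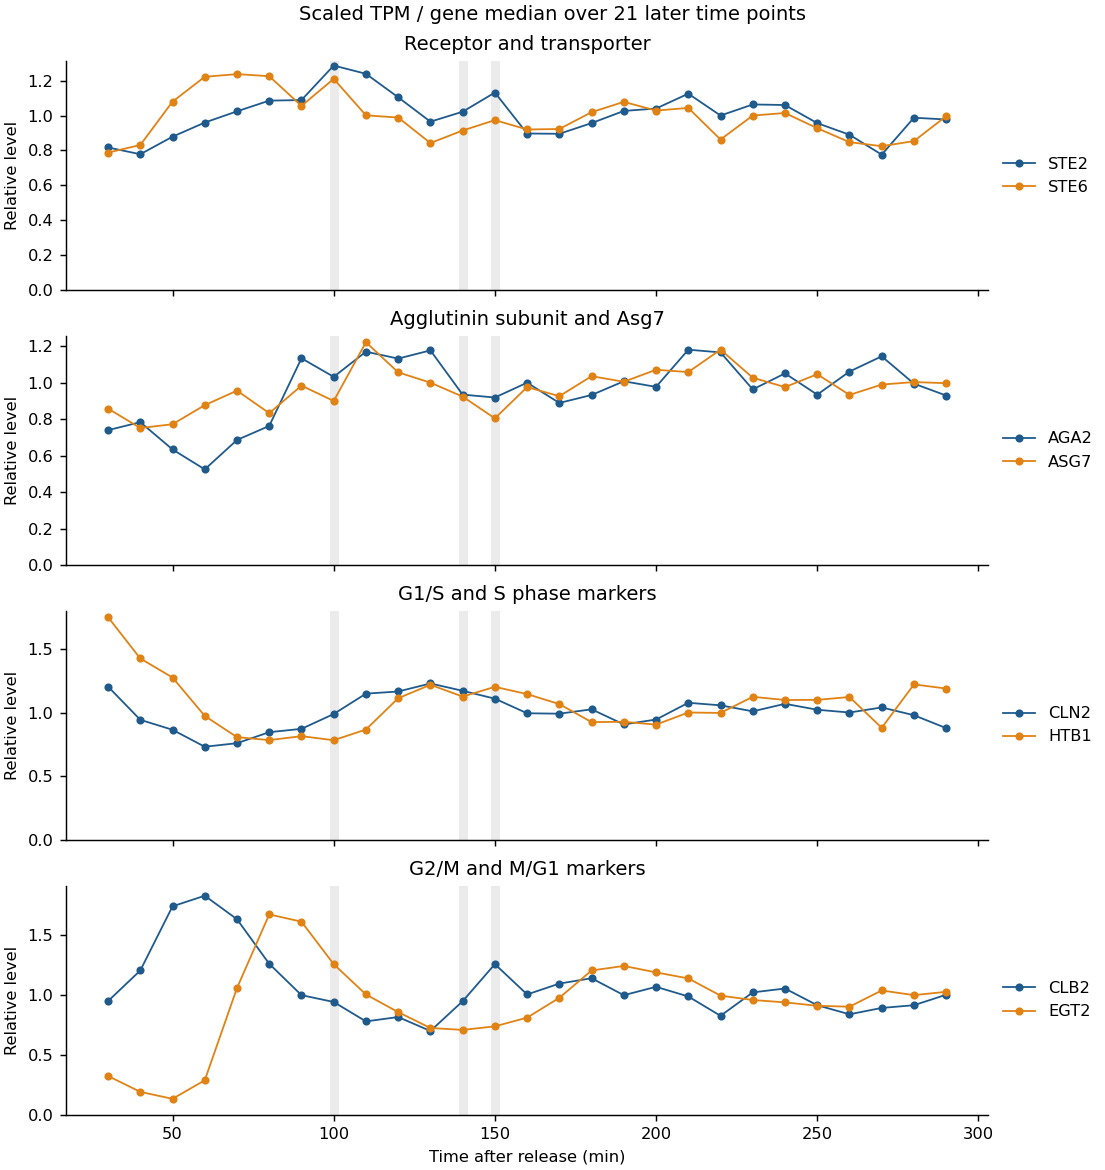
Scaled TPM relative to the gene's own median over the 21 later time points (vertical axes, each starting at 0) against time after release in min, for STE2 and STE6, AGA2 and ASG7, and 4 phase markers, with 1 library per point and grey bands at 100, 140 and 150 min. AGA2 is lowest at 60 min, where CLB2 peaks, STE6 is high before STE2, and the amplitudes of the a-specific genes are smaller than those of CLB2 and EGT2. This does not hold for all 4 markers. The lowest trough and highest peak in scaled TPM were 278 and 627 for AGA2, 40.8 and 68.6 for CLN2, and 297 and 664 for HTB1.

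The features with the most similar profiles were found by Pearson correlation of log2(scaled TPM + 1) over the 30 time points, and 5136 features that averaged 10 TPM or more were compared. For STE2 they were KAR4, a transcription factor of karyogamy (0.85), VMA6, a vacuolar ATPase subunit (0.82), and GYP8, a Rab GTPase-activating protein (0.81). GYP8 is the neighbour of STE2 on chromosome VI. For STE6 they were INO80, a chromatin remodeller (0.83), GPI10, an enzyme of GPI anchor synthesis (0.81), and MCM4, a subunit of the replicative helicase (0.80). For AGA2 they were ENO1, an enolase (0.94), FDH1, a formate dehydrogenase (0.92), and NRD1, an RNA-binding factor of transcription termination (0.91). For ASG7 they were MET6, the methionine synthase (0.97), LEU2, an enzyme of leucine synthesis (0.96), and MMP1, a permease for S-methylmethionine (0.96). The points of a correlation share the culture and the library, and for AGA2 and ASG7 the high value at 0 min weighs on it.

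The a-factor genes could not be followed through their listed values alone. MFA2 was listed at 0 at 0, 90, 120, 190 and 250 min. At the other 25 time points it ranged between 1269 and 2714 TPM with a median of 2101 TPM, so a 0 stood between neighbours of 1323 and 1764 TPM at 80 and 100 min, and between 2652 and 2646 TPM at 110 and 130 min. MFA1 was above 0 only at 70 min (1633 TPM) and 150 min (1261 TPM). Where both genes were above 0, MFA2 was the higher, with 2421 TPM at 70 min and 1997 TPM at 150 min. No fold change is given for either gene across a listed 0. Without the arrested sample, MFA2 had a log2 ratio of -0.10 for 30 to 50 min over 10 and 20 min.

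Gene length moved with these zeros. An R64 length was known for 6047 of the 7127 features, and counts by length cover only these. The R64 coding length is 111 nt for MFA1 (chrIV:1385176-1385286) and 117 nt for MFA2 (chrXIV:352414-352530). All 46 features shorter than 100 nt were listed at 0 throughout, and 5 of 6 features of 100 to 110 nt were too. Many of the 46 are tRNA genes, and whether their zeros follow length or the kind of gene was not tested. Of 8 features of 111 to 119 nt, 1 was at 0 throughout and 7 at some time points. Among features that reached 100 TPM at some time point, 6 of 7 shorter than 150 nt were listed at 0 at some other time point, against 0 of 1284 that were 150 nt or longer.

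Features outside the member set shared the exact pattern of zeros. OST4, which encodes a small subunit of oligosaccharyltransferase and is also 111 nt long, was above 0 at the same 2 time points as MFA1 and at no other, at up to 1076 TPM, and so was snR6, at up to 68.9 TPM. YKL156C-A, for which the R64 table gave no length, was at 0 at the same 5 time points as MFA2 and reached 2293 TPM elsewhere. These shared zeros set the correlations of the nearest profiles, which for MFA2 with YKL156C-A was 0.99 and for MFA1 with OST4 was higher still. Over the 25 time points where MFA2 was above 0, the correlation of MFA2 with YKL156C-A was 0.22. The next profiles reached 0.59 (YCL041C) and 0.53 (MST27) for MFA1 and 0.58 (YPR108W-A) and 0.58 (ARP1) for MFA2.

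Among features with a length in R64, the shortest one above 0 also differed between libraries. With MFA1 and MFA2 left out, it was 120 to 123 nt long (median 123) at the 5 time points where MFA2 was listed at 0, 114 to 123 nt (median 120) at the 23 where MFA2 alone was above 0, and 108 and 111 nt at the 2 where both a-factor genes were. The first 2 of these ranges overlapped. Whether the limit on length differs between libraries for a technical reason was not tested, and a 0 for MFA1 or MFA2 in this table cannot be read as absence of the transcript. In the table of corrected scores, MFA1 ran between -0.815 and 0.748 at the 28 time points with 0 TPM and between 2.69 and 3.15 at the 2 others. MFA2 had scores of -2.85 to -0.431 where it was at 0 TPM and of -0.847 to 1.72 elsewhere, and the 2 ranges overlapped. The highest of its scores at 0 TPM was that of 0 min.

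**Figure D4:**
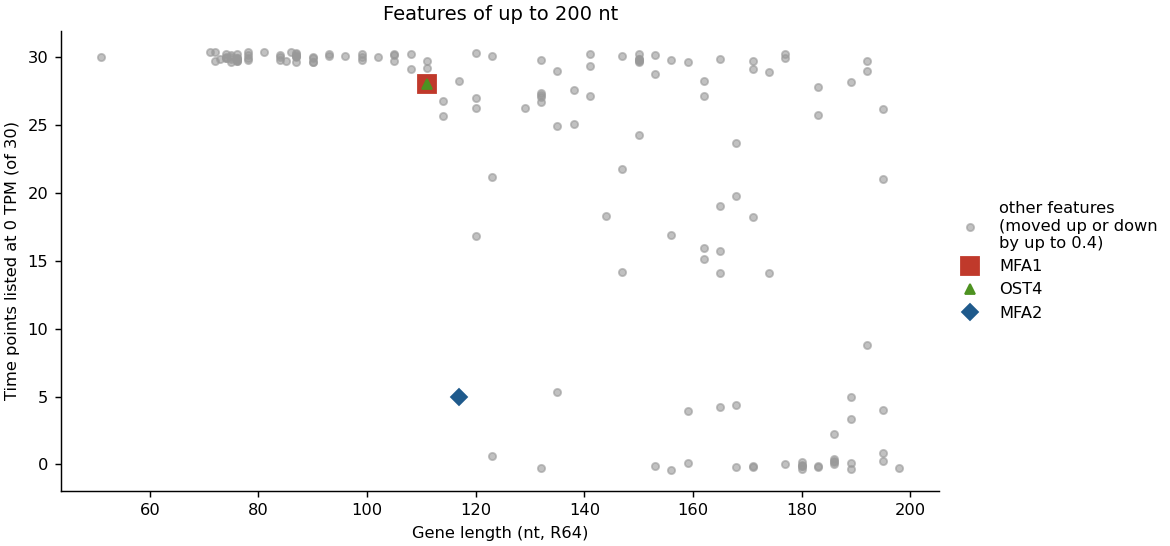
Number of time points of 30 at which a feature is listed at 0 TPM (vertical axis) against its gene length in nt (horizontal axis), for features of up to 200 nt with a length in R64, with other features moved vertically by up to 0.4 so that they can be told apart. MFA1 and OST4 lie together at 111 nt and 28 time points, MFA2 lies at 117 nt and 5 time points, and features shorter than 100 nt lie at 30.

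The coding sequences of both a-factor genes are shown because their zeros differ although the genes are near in length and function. Capitals mark their longest shared run, of 11 bases.
MFA1: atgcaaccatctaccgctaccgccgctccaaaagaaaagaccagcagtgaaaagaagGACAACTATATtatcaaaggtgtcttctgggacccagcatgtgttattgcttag
MFA2: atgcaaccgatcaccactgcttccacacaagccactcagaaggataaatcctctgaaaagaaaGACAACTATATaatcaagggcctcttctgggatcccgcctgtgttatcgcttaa

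The shared run begins at base 58 of MFA1 and base 64 of MFA2, counted from the A of the start codon. In a global alignment 86 of 120 columns (71.7%) were identical, and the genes shared 0 stretches of 25 bases. Sharing of reads between the pair was not tested.

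BAR1 (chrIX:322342-324105) was listed at 0 at all 30 time points in a strain labelled bar1. BAR1 is 1764 nt long, and 40 of 5740 features with an R64 length of 300 nt or more were at 0 throughout. Many of these 40 have the same length of 1323 nt, so they are a mixed class to set beside BAR1. Both neighbouring protein-coding genes, chosen after their values were seen, were in the same state. SNL1 (chrIX:321454-321933), which encodes a membrane protein that binds Hsp70 chaperones, and YIL014C-A (chrIX:325212-325526) were listed at 0 at all 30 time points. The next genes outward were above 0 throughout, VID28 between 32.8 and 152 TPM and MNT3 between 11.2 and 26.9 TPM. The listings at 0 therefore covered 3 genes in a row, and the BAR1 operator printed above lies between SNL1 and BAR1. It was read from the R64 reference, and whether this strain carries it was not tested. Such a run was not particular to BAR1. REE1 (YJL217W), YJL218W and HXT9 (YJL219W), which carry consecutive locus names, were also among the 40. HYP2, an essential gene for a translation factor, was among the 40 too. A listing at 0 therefore does not by itself show that a gene is missing or silent.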

How the data were processed

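RNA was prepared from 1 culture at 30 time points, and each sample's time was taken from its label. The authors aligned reads with STAR, quantified them with RSEM against R64 and deposited TPM. Tool versions are not given in the sources used here. Read depth is unknown, and counting intervals are not given. The authors also deposited corrected scores, used only for MFA1 and MFA2. All columns were mapped, and 6047 of 7127 features matched R64 by locus tag.

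The members and lists were chosen with earlier results of these data known. Ratios are of mean TPM per window, without a pseudocount. Features at 0 within either window got no ratio, and shares of features used those with a mean of at least 1 TPM. Named besides the members were the 3 genes of each list with the largest log2 ratio at 30 to 50 over 0 to 20 min, with the phase markers as 1 list, then MCM1, STE12, AGA1, AFB1, CLN2, HTB1, CLB2 and EGT2, and the 3 nearest profiles. Mating type genes were read as markers. OST4, snR6, YKL156C-A, SNL1, YIL014C-A, VID28, MNT3, HYP2, REE1, YJL218W, HXT9 and DIG2 were chosen after their values were seen. Alternatives were scaling, pseudocounts of 1 and 0.1, no filter, left-out time points and periods of 50 to 150 min. Python 3.11.15, numpy 2.4.6, pandas 2.3.3 and matplotlib 3.10.9 were used, and the ratios and the periodicity score were tested on simulated data.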

Additional observations from a re-analysis of the deposited data

How the results depend on the processing

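No paired analysis was possible because there are no replicates. Leaving out 0 min took the count of members past 2-fold at 30 to 50 over 0 to 20 min to 0, and keeping 100, 140 and 150 min took the count with a 2-fold range over 60 to 290 min to 2. The other counts of members did not move by over 1.5 times under the alternatives run. Among single genes and counts over all features, 28 values moved, 108 did not, and 0 of the called members changed sign. Counts of all features past 2-fold moved by over 1.5 times in 5 cases. For 30 to 50 over 0 to 20 min, 344 became 179 after scaling and 805 without 20 min. For 140 and 150 over 130 and 160 min, 126 became 81 with a pseudocount of 1. For 250 to 290 over 160 to 200 min, 6 became 12 with a pseudocount of 0.1 and 15 with window medians. The split of calls at 30 to 50 over 0 to 20 min turned with scaling, being 308 higher and 36 lower in TPM and 79 higher and 100 lower after scaling. With 1 library per time point, the error of a single value is unknown.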
